A study of Gallus gallus with 9 samples.

Results

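The mandibular and maxillary prominences are the lower and upper buds of the embryonic first pharyngeal arch, and their RNA was compared here on 6 of the 9 arrays of the series. The members were chosen by sample title: 3 arrays of the mandibular prominence and 3 of the maxillary prominence. Each array held RNA of 1 pool of 26 to 32 dissected pieces, mesenchyme together with its epithelium, from untreated chicken embryos of unknown genotype at Hamburger Hamilton stage 18, kept at 38 degrees C. The labels call the pools biological replicates, so every p value here reflects only the variation among pools. The remaining 3 arrays, of the frontonasal mass, stayed out of the test and are quoted only where they bear on a gene.

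Both buds are filled by neural crest cells that migrate from the same part of the head and carry no HOX code of their own. In the ventral arch, endothelin 1 signals through its receptor EDNRA and switches on DLX5 and DLX6, which in turn activate HAND2, the combination known from mouse and fish to give the lower jaw its identity. Dorsally, where that signal is weak, the crest keeps a programme of DLX1, DLX2 and other genes from which upper jaw tissue forms, while the arch core holds mesoderm and the inner lining is endoderm.

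The 6 arrays were of similar quality. The share of the 38439 probe sets with a signal over background was 49.2% to 53.3% per array, at a background of 31.6 to 37.2 intensity units. Arrays correlated on average at 0.986 to 0.987 within their own prominence and at 0.983 to 0.985 with those of the other prominence. The ratio of 3' to 5' signal of actin, a sign of RNA quality, was 2.01, 2.03 and 2.17 in mandibular pools and 2.46, 2.30 and 1.99 in maxillary pools. Frontonasal pool 2 read higher than the other pools of its group for several genes named below. In RNA of whole buds, fewer cells of a type and less RNA per cell cannot be told apart. Precision is limited by having 3 arrays in a group.

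The mandibular pools had higher levels of the ventral arch regulators DLX6, HAND2, MSX2 and, by 1 of its 2 probe sets, DLX5, and of the mesodermal and cardiac regulators GATA5, NKX2-5 and ISL1. They had lower levels of ALX1, PRRX2, LHX8 and RARB, which were above background in both buds. Also lower were SOX10 and FOXD3, which mark migrating neural crest and early glia. Of 38439 probe sets, 145 (0.377%) passed an adjusted p of 0.05 in limma, 105 of them (0.273%) higher and 40 (0.104%) lower in the mandibular pools. Differences are of log2(signal + 16), mandibular minus maxillary, and are given with their standard error. Of the called probe sets, 79 differed by at least 1 on this scale, 62 upward and 17 downward, while the median over all probe sets was 0.0015. At an unadjusted p under 0.05 there were 3300 (8.59%). With 1 probe set for each gene, 91 of 13009 genes (0.700%) were called, 66 higher (0.507%) and 25 lower (0.192%). The 3 mandibular and 3 maxillary arrays did not overlap at any called probe set, nor at 5176 probe sets in all (13.5%).

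These calls rest on all 6 pools. The number of called probe sets was 27, 21 and 25 without mandibular pool 1, 2 or 3, and 30, 27 and 22 without maxillary pool 1, 2 or 3. Only 16 of the 145 passed in each of these 6 fits, all of them higher, and 99 passed in none. All 145 kept their sign in the 6 fits, but groups that do not overlap cannot change sign this way, so this adds no support. Of the 91 called genes, 10 passed in all 6 fits, 21 in 1 to 5 of them and 60 in none. The 16 included MSX2, BHLHE22, CHODL, ISL1, CSRP3, NPY, HECW1, KCNAB1, ABCC9 and GRIN3A.

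**Figure D1:**
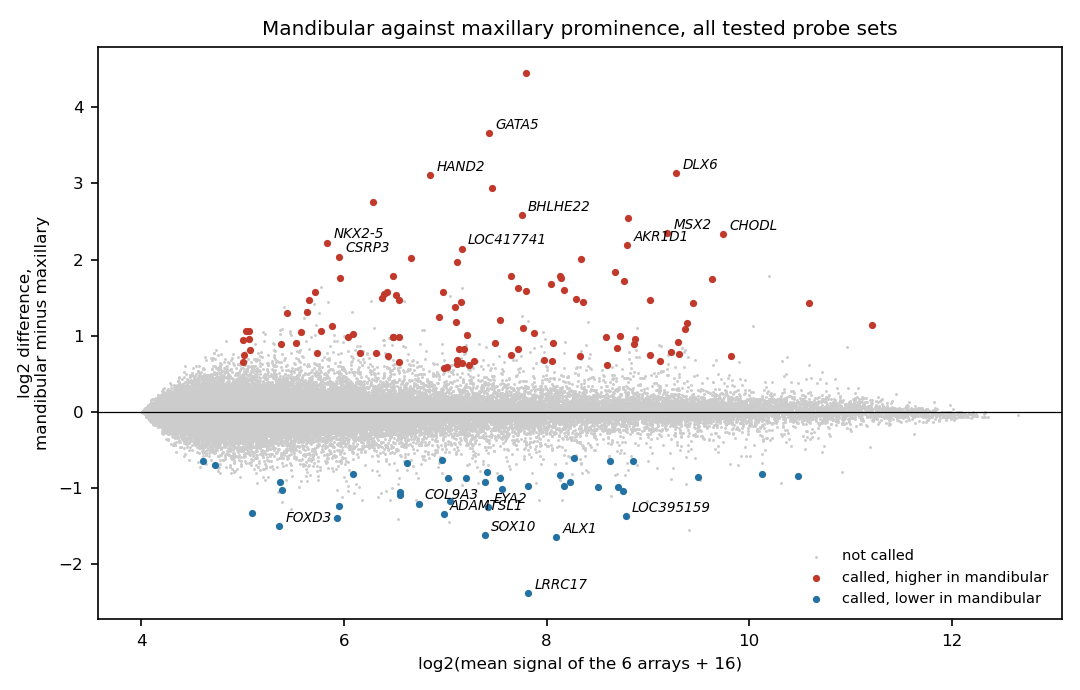
Log2 difference of mandibular minus maxillary pools (vertical axis) against log2(mean signal of the 6 arrays + 16) (horizontal axis) for all 38439 tested probe sets, with the 105 called higher in red, the 40 called lower in blue and the rest in grey. The called points lie above the zero line more often than below it, and GATA5, DLX6 and HAND2 are the highest labelled genes, LRRC17 the lowest.

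Among the ventral arch genes, 4 were higher in the mandibular pools. HAND2, a helix-loop-helix regulator that drives distal lower jaw development, had signals of 205, 196 and 171 intensity units in mandibular pools against 5.28, 16.6 and 3.69 in maxillary pools. The maxillary values were below background on all 3 arrays, and the frontonasal pools read 5.16, 50.1 and 3.10. A gene in this position has only a lower bound for its fold, in which any dim value under its array's background is raised to that background before the log2 means are compared. HAND2 was thereby at least 5.39-fold higher in mandibular than in maxillary pools (difference 3.11 ± 0.20, limma adjusted p = 0.00527).

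DLX6, a homeobox gene downstream of endothelin, had signals of 1195, 955 and 1145 in mandibular pools against 162, 104 and 78.8 in maxillary pools. Both groups lay above background on every array and did not overlap. The mean was 1098 ± 127 in mandibular and 115 ± 42.6 in maxillary pools (SD, n = 3 each), a difference of 3.13 ± 0.23 (limma adjusted p = 0.00932). In the frontonasal pools DLX6 read 399, 311 and 447, above all its maxillary values. A second probe set of DLX6 was also called, at 1.31 ± 0.09. DLX5, its partner, had signals of 3609, 2928 and 3228 in mandibular pools against 1652, 1518 and 1234 in maxillary pools (difference 1.15 ± 0.14, adjusted p = 0.0414). The frontonasal mean of DLX5 was 1944 ± 277 (SD, n = 3). The 2 probe sets of DLX5 disagree: the dimmer one read 59.6, 90.7 and 82.8 in mandibular pools against 169, 177 and 127 in maxillary pools. Its difference was -0.89 ± 0.17 (adjusted p = 0.154), so the direction given for DLX5 is that of its brighter probe set. In the reference gene table SHFM1, DLX6 and DLX5 are neighbours, and SHFM1, a proteasome and DNA repair subunit, was called by 1 of its probe sets (0.90 ± 0.09, adjusted p = 0.0237).

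MSX2, a homeobox target of BMP signalling in distal arch mesenchyme, had signals of 1054, 837 and 992 in mandibular pools against 178, 195 and 154 in maxillary pools. The lowest mandibular pool was far above the highest maxillary pool, and the difference was 2.35 ± 0.12 (limma adjusted p = 0.00326). Its relative MSX1 read 832, 667 and 743 in mandibular pools against 491, 388 and 401 in maxillary pools. The MSX1 groups did not overlap, but the difference of 0.79 ± 0.13 did not pass (adjusted p = 0.0918). When 1 pool was left out, the highest adjusted p was 0.0509 for HAND2 without mandibular pool 2, and 0.0769 for DLX6, 0.161 for DLX5 and 0.0371 for MSX2 without mandibular pool 1.

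The remaining ventral genes did not pass. The ventral arch and endothelin list held 23 measured genes. Of these, 4 were higher, 0 were lower and 19 did not pass, beside 0.700% of all genes called. The list had a median difference of 0.14 against 0.0081 over all genes. Like the other lists, it was chosen with earlier results of these data known. The receptor gene EDNRA differed by -0.52 ± 0.12 (adjusted p = 0.218), with signals of 574, 504 and 534 in mandibular pools against 818, 858 and 667 in maxillary pools. Its ligand EDN1 read 70.8, 58.6 and 60.3 in mandibular pools against 45, 43.9 and 45.2 in maxillary pools (0.38 ± 0.09, adjusted p = 0.223). For both the groups did not overlap, in opposite directions. BARX1, a homeobox gene of tooth and jaw mesenchyme, differed by 0.71 ± 0.15, PITX1, a lower jaw and hindlimb regulator, by -0.31 ± 0.10, and GSC, a homeobox gene downstream of endothelin, by -0.06 ± 0.19, and the arrays of GSC overlapped. HAND1, DLX3, EVX1 and EDN2 stayed below background on all 6 arrays, and DLX2 and POU3F3 were not analysed here.

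**Figure D2:**
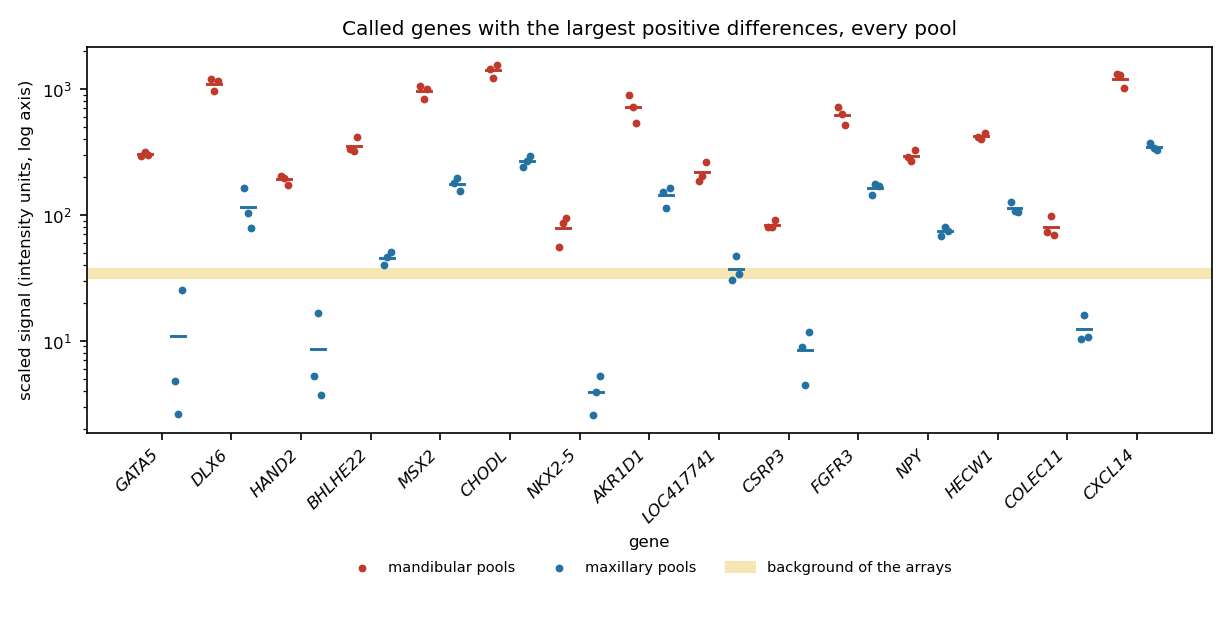
Scaled signal in intensity units on a log axis for the 15 called genes with the largest positive differences, with mandibular pools in red and maxillary pools in blue, 1 point per pool and a bar at the mean of 3. The genes were picked among those whose groups do not overlap, so the groups are apart by choice. The maxillary points of GATA5, HAND2, NKX2-5, CSRP3 and COLEC11 lie below the shaded range of array backgrounds.

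In the other direction, 4 genes of a list of maxillary and proximal arch genes were lower in the mandibular pools. All 4 were above background on every array of both groups. ALX1, a homeobox gene of frontonasal and maxillary mesenchyme, had signals of 106, 131 and 112 in mandibular pools against 482, 344 and 373 in maxillary pools. The groups were well apart, with a difference of -1.64 ± 0.14 (limma adjusted p = 0.0157). PRRX2, a homeobox gene of undifferentiated mesenchyme, read 287, 241 and 266 in mandibular pools against 556, 510 and 554 in maxillary pools (-0.99 ± 0.09, adjusted p = 0.0187). Its relative PRRX1 overlapped between the groups, at -0.21 ± 0.11. Of the 4 PRRX2 probe sets, 1 was called, and all 4 had negative differences, from -0.99 to -0.03.

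LHX8, a LIM homeobox gene needed for palate formation in mouse, was bright in both buds. Its signals were 958, 1027 and 1027 in mandibular pools against 2065, 1675 and 1718 in maxillary pools (-0.84 ± 0.10, limma adjusted p = 0.0426). In the frontonasal mass it read 17.5, 28.8 and 9.54, all below background. The LHX8 call was lost with all 9 arrays in one fit (0.193) and with frontonasal pool 2 left out of that fit (0.0503). RARB, a retinoic acid receptor that is itself induced by retinoic acid, had signals of 491, 463 and 537 in mandibular pools against 1012, 829 and 902 in maxillary pools (-0.86 ± 0.10, adjusted p = 0.0425). A second RARB probe set above background had a difference of -1.11 ± 0.20 that did not pass (adjusted p = 0.122).

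These were the 4 called members of the 22 measured genes of the maxillary and proximal arch list, beside 0.700% of all genes called. All 4 were lower, 18 genes did not pass and the median was -0.18. Among those that did not pass, DLX1, which patterns the dorsal arch, had signals of 160, 129 and 111 in mandibular pools against 237, 260 and 192 in maxillary pools (-0.72 ± 0.16, adjusted p = 0.206). TBX22, mutated in X-linked cleft palate, differed by -0.55 ± 0.23 and PAX9, a paired box gene of palate and tooth mesenchyme, by -0.31 ± 0.15, both with overlapping arrays. MEIS2 was called by 1 of its 2 probe sets, at -0.88 ± 0.10 (adjusted p = 0.0414), while the brighter one had -0.45 ± 0.08 (adjusted p = 0.0989). PRRX2, LHX8 and RARB lost their calls in all 6 fits without 1 pool, and ALX1 in 5 of 6. The highest adjusted p was 0.1 for ALX1 and 0.105 for PRRX2 without mandibular pool 3, and 0.177 for LHX8 and 0.176 for RARB without mandibular pool 1.

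The retinoid list held 17 measured genes, with a median of -0.17. RARB was lower and 16 did not pass, beside 0.700% of all genes called. CYP26A1, which degrades retinoic acid, read 32.5, 44.1 and 52.6 in mandibular pools against 126, 74.6 and 107 in maxillary pools. The groups did not overlap, but the difference of -0.997 ± 0.20 did not pass (adjusted p = 0.167). The synthesis genes ALDH1A2 and ALDH1A3 had differences of -0.35 ± 0.10 and 0.27 ± 0.22.

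LRRC17, a gene for a secreted leucine-rich repeat protein, had the largest negative difference among named genes. It read 75.0, 59.8 and 36.1 in mandibular pools against 466, 309 and 310 in maxillary pools (-2.38 ± 0.25, limma adjusted p = 0.0265, highest 0.118 without mandibular pool 2). All 6 values were above background, though that of mandibular pool 3 only just, at an array background of 35.6. The groups were far apart. Other secreted or matrix genes that were lower included ADAMTSL1, an ADAMTS-like protein, at -1.34 ± 0.12, COL14A1, a fibril-associated collagen, at -0.82 ± 0.10, and KERA, a corneal and mesenchymal proteoglycan, at -0.86 ± 0.10. The rest of the 15 largest negative differences belonged to LOC395159 (-1.37 ± 0.18), WSCD2 (-1.17 ± 0.11), EPB41L3, which links membrane proteins to the cytoskeleton (-1.04 ± 0.13), and TOM1L1, an adaptor of endosomal sorting (-1.01 ± 0.09), beside the genes of the lists described here. A second, dimmer probe set of WSCD2 had the opposite sign, at 0.40. Without 1 pool the highest adjusted p of these genes lay between 0.0908 for TOM1L1 without mandibular pool 2 and 0.197 for LOC395159 without mandibular pool 1. With all 9 arrays in one fit the calls of KERA (0.0637), EPB41L3 (0.103) and LOC395159 (0.158) were lost.

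**Figure D3:**
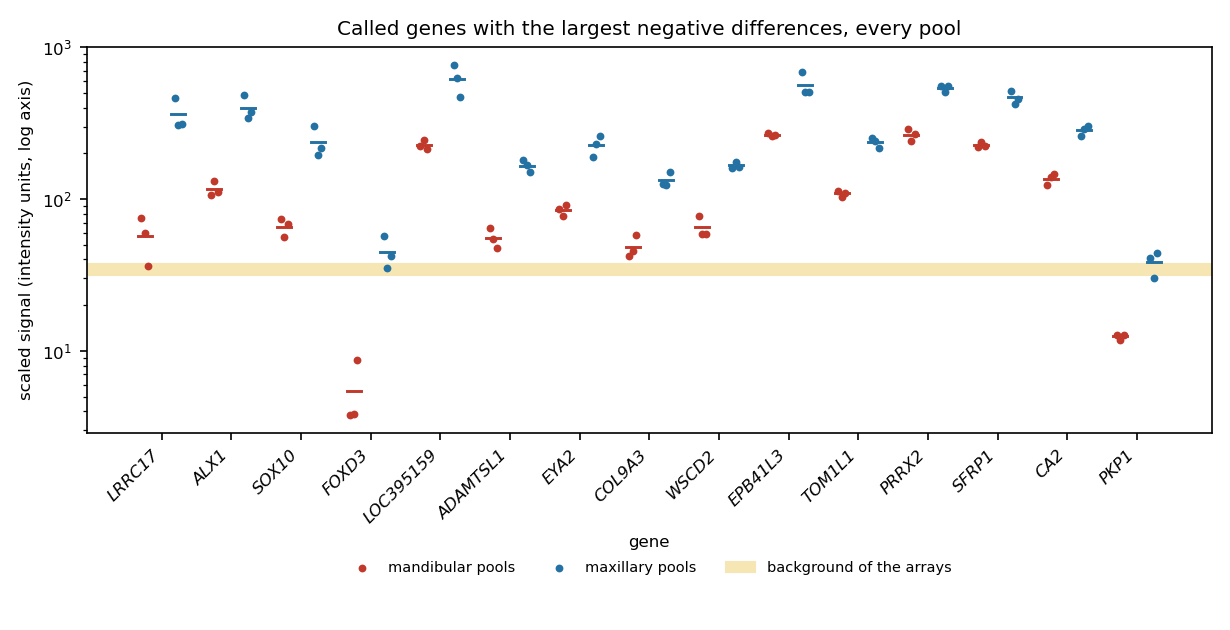
Scaled signal in intensity units on a log axis for the 15 called genes with the largest negative differences, with mandibular pools in red and maxillary pools in blue, 1 point per pool and a bar at the mean of 3. The genes were picked among those whose groups do not overlap. LRRC17, ALX1 and SOX10 are apart by wide gaps, and the mandibular points of FOXD3 and PKP1 lie below the shaded range of array backgrounds.

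SOX10 and FOXD3, markers of early crest and glia, were lower in the mandibular pools, while most genes of the crest mesenchyme list did not pass. SOX10, which maintains crest progenitors and glia, had signals of 73.4, 56.0 and 68.4 in mandibular pools against 303, 195 and 217 in maxillary pools. The difference was -1.62 ± 0.17 (limma adjusted p = 0.0288, highest 0.133 without mandibular pool 1). The other SOX10 probe set was above background on only 1 of the 6 arrays and differed by 0.30 ± 0.26. FOXD3, a forkhead gene of crest specification, read 3.78, 3.85 and 8.71 in mandibular pools, below background, against 57.1, 35.2 and 42.4 in maxillary pools, of which 2 were above background. It was at least 1.3-fold lower in mandibular than in maxillary pools (-1.50 ± 0.16, adjusted p = 0.0287, highest 0.151 without mandibular pool 1). Both SOX10 and FOXD3 lost their calls in all 6 fits without 1 pool. Of 28 measured genes of the crest mesenchyme list, PRRX2, FOXD3 and SOX10 were lower and 0 were higher, beside 0.700% of all genes called. The other 25 did not pass. The median of the list was -0.13, and 12 of its 28 genes had a positive difference, up to 0.79. FOXD3 was also the only called gene of 13 forkhead genes, beside 0.700% of all genes. Among the forkhead genes FOXC2, a gene of arch and vessel mesenchyme, had a difference of 0.76 ± 0.11 (adjusted p = 0.067).

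GATA5, GATA6, NKX2-5 and ISL1, regulators known from heart and arch mesoderm, were higher in the mandibular pools, while most genes of the mesoderm list did not pass. GATA5 and GATA6 stand outside that list. GATA5, a zinc finger factor of heart and endoderm, had signals of 291, 317 and 299 in mandibular pools against 4.78, 2.61 and 25.0 in maxillary pools, which were all below background. GATA5 was at least 8.56-fold higher (difference 3.66 ± 0.29, limma adjusted p = 0.0111), the largest positive difference among named genes. NKX2-5, a homeobox gene of heart and pharynx, read 55.3, 86.4 and 93.6 in mandibular pools against 2.57, 3.91 and 5.27 in maxillary pools, a rise of at least 2.17-fold (2.22 ± 0.17, adjusted p = 0.0107). GATA6 was above background in 2 of 3 mandibular and in 0 of 3 maxillary pools (1.30 ± 0.16, adjusted p = 0.044).

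ISL1, a LIM homeobox gene of arch mesoderm, the second heart field and some neurons, was above background everywhere. It read 427, 463 and 449 in mandibular pools against 151, 160 and 139 in maxillary pools, with little spread in either group. The difference was 1.48 ± 0.08 (limma adjusted p = 0.0038), and a second probe set gave 2.01 ± 0.09. TNNT2, cardiac troponin T, had signals of 121, 88.0 and 129 in mandibular pools against 20.7, 37.1 and 24.5 in maxillary pools, which makes it at least 3.15-fold higher (1.57 ± 0.18, adjusted p = 0.0401). CSRP3, a LIM protein of striated muscle, read 80.2, 79.6 and 91.1 in mandibular pools against 8.93, 4.46 and 11.8 in maxillary pools. It was at least 2.37-fold higher (2.04 ± 0.13, adjusted p = 0.00525) and kept its call in all 6 fits without 1 pool.

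Of 22 measured genes of the branchiomeric muscle and arch mesoderm list, ISL1, NKX2-5 and TNNT2 were higher and 0 were lower, beside 0.700% of all genes called. The other 19 did not pass, and the median of the list was 0.08. The summed signal of the list was 1694 to 1807 in mandibular pools and 1182 to 1294 in maxillary pools. This sum includes the called genes, among them ISL1 with means of 447 in mandibular and 150 in maxillary pools, so it is not separate from the calls. DES, MYOG, CHRND and MYH7 stayed below background on all 6 arrays. Other contractile genes gave no call: TNNC1 differed by -0.06 ± 0.16, MYL4 by -0.30 ± 0.16 and ACTC1 by 0.30 ± 0.20, all with overlapping groups. The muscle determinants MYF5 and MYOD1 had differences of 0.08 ± 0.11 and -0.55 ± 0.41, and TBX1, a T-box gene of arch mesoderm and endoderm, -0.04 ± 0.14.

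In the frontonasal mass these genes were uneven between pools. GATA5 read 6.37, 1071 and 85.3 in frontonasal pools 1, 2 and 3, NKX2-5 read 2.43, 90.8 and 1.05, and ISL1 read 47.7, 363 and 45.1. GATA6 read 9.65, 147 and 11.0, and TNNT2 read 20.2, 115 and 45.9. With all 9 arrays in one fit, that spread entered the estimate and the mandibular and maxillary pools no longer differed at adjusted p under 0.05 for GATA5 (0.46), NKX2-5 (0.334), ISL1 (0.644), TNNT2 (0.29) or GATA6 (0.744). With frontonasal pool 2 left out of that fit, all 5 were called, with adjusted p values between 0.0011 for ISL1 and 0.0465 for TNNT2. The second probe set of ISL1 was not called there (limma adjusted p = 0.0568). Without 1 of the 6 pools, the highest adjusted p was 0.0852 for GATA5 and 0.171 for TNNT2 without mandibular pool 1, 0.0745 for NKX2-5 without maxillary pool 3 and 0.162 for GATA6 without maxillary pool 2.

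**Figure D4:**
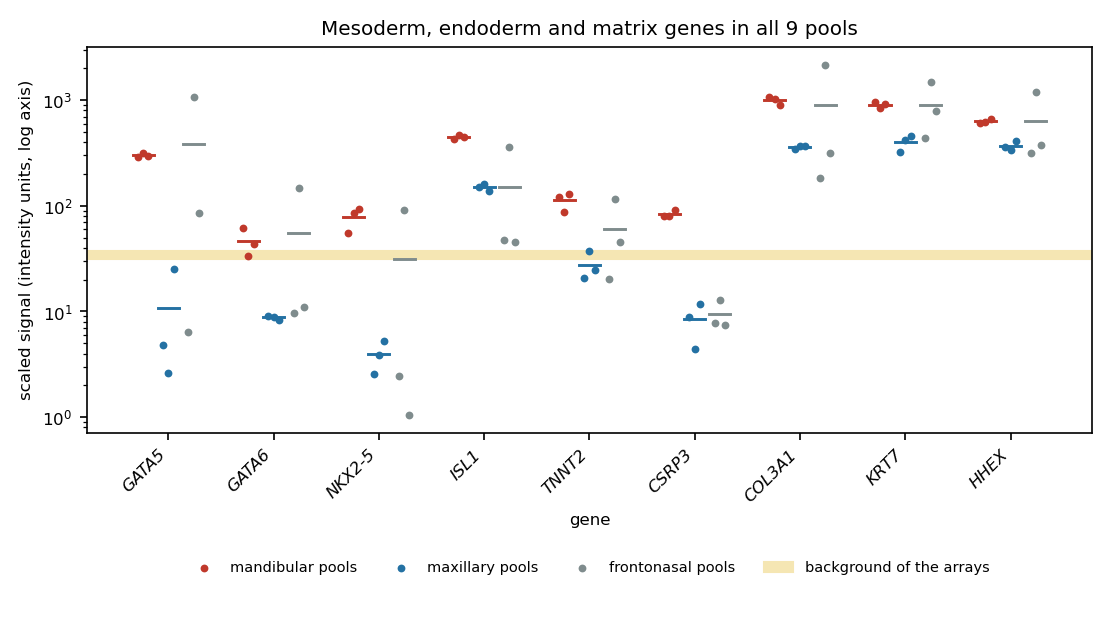
Scaled signal in intensity units on a log axis of 9 genes of mesoderm, endoderm, matrix and epithelium in all 9 pools, with mandibular pools in red, maxillary pools in blue and frontonasal pools in grey, 1 point per pool and a bar at the mean of 3. All 9 are called genes, and no called gene overlapped between mandibular and maxillary pools. The highest frontonasal point is that of pool 2 for every gene.

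Calls were made in the FGF, BMP and WNT lists, at 2 of 29, 2 of 28 and 3 of 48 measured genes, beside 0.700% of all genes. FGFR3, an FGF receptor that restrains growth of cartilage, had signals of 714, 636 and 521 in mandibular pools against 144, 174 and 168 in maxillary pools (1.84 ± 0.14, limma adjusted p = 0.00932, highest 0.0713 without maxillary pool 3). Its 3 other probe sets had differences of 0.06 to 0.97 and were not called. FGFR3 read 190, 584 and 198 in the frontonasal pools, and its adjusted p was 0.138 with all 9 arrays in one fit. FGF13, an intracellular relative of the FGFs that binds sodium channels, was the only other call among 29 measured FGF pathway genes, at 0.83 ± 0.10 (adjusted p = 0.044, highest 0.176 without mandibular pool 1). Of the 4 FGF13 probe sets, 1 was called and 2 had negative differences, the lowest -0.29. The FGF list had 27 members that did not pass and a median of 0.013. FGF8, an oral ectoderm signal, read 56.1, 41.2 and 47.3 in mandibular pools against 71.0, 67.1 and 59.4 in maxillary pools (-0.35 ± 0.11, adjusted p = 0.434).

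In the BMP pathway, 2 of 28 measured genes were higher, 0 were lower and 26 did not pass, with a median of 0.06. BAMBI, a decoy receptor for BMP and TGF-beta ligands, had signals of 2304, 1968 and 2437 in mandibular pools against 909, 671 and 884 in maxillary pools. The difference was 1.43 ± 0.15 (limma adjusted p = 0.0247, highest 0.145 without mandibular pool 1). FST, follistatin, which binds activins and BMPs, read 152, 189 and 131 in mandibular pools against 45.8, 65.4 and 58.7 in maxillary pools (1.25 ± 0.16, adjusted p = 0.0441, highest 0.183 without mandibular pool 1). The groups of both inhibitors were well apart. BAMBI read 402, 1402 and 597 in the frontonasal pools, and its adjusted p was 0.31 with all 9 arrays in one fit. The ligands BMP4 and BMP7 did not pass, at -0.50 ± 0.14 and 0.15 ± 0.11, nor did ID4, a target of the pathway, at 0.59 ± 0.11.

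Among 48 measured WNT pathway genes, 2 were higher and 1 was lower, while 45 did not pass, with a median of 0.0038. NOTUM, which removes the lipid of WNT ligands, had signals of 277, 312 and 314 in mandibular pools against 72.8, 112 and 77.8 in maxillary pools (1.63 ± 0.15, limma adjusted p = 0.0187). SFRP1, which binds secreted WNTs, read 221, 239 and 224 in mandibular pools against 517, 425 and 459 in maxillary pools, the opposite direction (-0.98 ± 0.10, adjusted p = 0.0216). Of the 4 SFRP1 probe sets, 1 was called and 2 had positive differences, the highest 0.075. DKK3, of the Dickkopf family, was higher by 0.84 ± 0.08 (adjusted p = 0.0187). Without 1 pool the highest adjusted p was 0.107 for NOTUM and 0.106 for DKK3 without mandibular pool 2, and 0.13 for SFRP1 without mandibular pool 1. DKK3 read 240, 593 and 220 in the frontonasal pools, and its adjusted p was 0.582 with all 9 arrays in one fit. The ligand gene WNT5A differed by 0.03 ± 0.12 with overlapping groups, and RSPO3, a secreted enhancer of WNT signalling, by 0.97 ± 0.18 (adjusted p = 0.135).

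No gene of the hedgehog list of 14 or of the notch list of 18 was called. The ligand gene SHH read 58.4, 54.4 and 50.3 in mandibular pools against 34.8, 31.3 and 28.8 in maxillary pools, where 1 of 3 arrays was above background. Its difference was 0.56 ± 0.09 (limma adjusted p = 0.0853). The hedgehog targets HHIP and PTCH1 had differences of 0.78 ± 0.11 and 0.61 ± 0.11 (adjusted p = 0.0644 and 0.134). SHH, HHIP and PTCH1 were the 3 genes of the 14 whose groups did not overlap, beside 13.5% of all probe sets. In the notch list the ligand DLL4 had -0.64 ± 0.12 and the glycosyltransferase LFNG 0.49 ± 0.10.

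EPHA3, an ephrin receptor, was the only called gene among 41 guidance cues and receptors, beside 0.700% of all genes called. It read 799, 664 and 778 in mandibular pools against 299, 248 and 235 in maxillary pools (1.46 ± 0.12, limma adjusted p = 0.0123, highest 0.0858 without mandibular pool 1). The groups did not overlap, and the ephrin ligand EFNB1 had a difference of 0.56 ± 0.08 that did not pass (adjusted p = 0.0541). RET, the GDNF receptor kinase, and CXCL14, a chemokine of epithelia and mesenchyme, belonged to no list and were higher. RET was higher by 1.57 ± 0.13 and CXCL14 by 1.74 ± 0.12, with CXCL14 signals of 1322, 1278 and 1016 in mandibular pools against 372, 341 and 327 in maxillary pools. Their highest adjusted p without 1 pool was 0.0837 for RET without mandibular pool 1 and 0.0599 for CXCL14 without maxillary pool 3. Of the 3 RET probe sets, 1 was called and 1 had a negative difference, -0.05.

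Several of the largest positive differences belonged to genes with other roles. BHLHE22, a helix-loop-helix repressor known from neurons, had signals of 331, 319 and 412 in mandibular pools against 39.7, 46.2 and 50.8 in maxillary pools and 43.2, 41.4 and 44.0 in frontonasal pools. The mandibular pools were apart from all others, with a difference to the maxillary pools of 2.58 ± 0.13 (limma adjusted p = 0.00305). CHODL, a membrane lectin known from motor neurons and muscle, read 1451, 1231 and 1561 in mandibular pools against 242, 267 and 294 in maxillary pools (2.33 ± 0.12, adjusted p = 0.00326), and both of its probe sets were called. AKR1D1, a steroid reductase of bile acid synthesis, was higher by 2.19 ± 0.21 (highest adjusted p 0.107 without mandibular pool 2), LOC417741 by 2.14 ± 0.17 (highest 0.0745 without maxillary pool 3), the neuropeptide gene NPY by 1.78 ± 0.10 and HECW1, a ubiquitin ligase, by 1.76 ± 0.09. COLEC11, a collectin that guides crest migration in zebrafish, was at least 2.24-fold higher (1.75 ± 0.14, highest 0.08 without mandibular pool 1), its frontonasal signals were 7.23, 194 and 11.7, and its adjusted p was 0.644 with all 9 arrays in one fit.

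Skeletal matrix genes were called in both directions. COL9A3, a cartilage collagen, read 42.3, 45.3 and 58.2 in mandibular pools against 125, 123 and 151 in maxillary pools (-1.21 ± 0.13, limma adjusted p = 0.0269, highest 0.135 without mandibular pool 1). COL9A1, its partner in the collagen trimer, had signals of 166, 173 and 135 in mandibular pools against 360, 310 and 462 in maxillary pools and just missed the threshold (-1.16 ± 0.16, adjusted p = 0.0604). In the other direction COL3A1, a collagen of loose connective tissue, read 1074, 1033 and 896 in mandibular pools against 344, 368 and 371 in maxillary pools (1.43 ± 0.09, adjusted p = 0.00592, highest 0.056 without mandibular pool 2). The mandibular and maxillary values were far from overlapping. Of the 6 COL3A1 probe sets, only the called probe set was above background on all 6 arrays. COL3A1 read 182, 2176 and 317 in the frontonasal pools, and its adjusted p was 0.784 with all 9 arrays in one fit. HAPLN1, which links hyaluronan to proteoglycan, was also higher, at 0.91 ± 0.08 (highest 0.102 without maxillary pool 2), a call lost with all 9 arrays (0.0982) and with frontonasal pool 2 left out (0.0518). Calls in the skeletal list of 27 measured genes were 2 upward and 1 downward, beside 0.700% of all genes called. Its remaining 24 genes missed the threshold, and the median was -0.18.

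Among markers of other tissues in the buds, 22 genes of surface and oral epithelium were measured, of which 1 was higher, 1 was lower and 20 did not pass, beside 0.700% of all genes called, with a median of 0.19, and their summed signal was 10999 to 11702 in mandibular pools and 8921 to 9861 in maxillary pools. KRT7, a simple epithelial keratin, read 958, 839 and 930 in mandibular pools against 320, 424 and 458 in maxillary pools (1.16 ± 0.14, limma adjusted p = 0.0427). PKP1, a desmosome protein, was below background in all mandibular pools and at least 1.12-fold lower there (-0.93 ± 0.11, adjusted p = 0.0422). In maxillary pools PKP1 read 40.7, 30.3 and 44.1, above background in 2 of 3. Both lost their calls in all 6 fits without 1 pool, with the highest adjusted p of 0.181 for KRT7 and 0.175 for PKP1 without mandibular pool 1. PKP1 also lost its call with all 9 arrays in one fit (0.081). KRT7 lost its call with all 9 arrays in one fit (0.449) and with frontonasal pool 2 left out of that fit (0.101). Whether the amount of epithelium has a part in the differences above was not tested.

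HHEX, a homeobox gene of foregut and thyroid, was the only called gene of 14 measured endoderm genes, beside 0.700% of all genes called. It had signals of 612, 618 and 671 in mandibular pools against 363, 340 and 411 in maxillary pools (0.75 ± 0.10, limma adjusted p = 0.0462, highest 0.177 without mandibular pool 2). Its frontonasal signals were 319, 1192 and 380, and its adjusted p was 0.809 with all 9 arrays in one fit. The thyroid and lung gene NKX2-1 stayed below background on all 6 arrays, and the endoderm list summed to 1410 to 1551 in mandibular and 1154 to 1179 in maxillary pools. These sums include HHEX, with means of 634 in mandibular and 371 in maxillary pools. The median of the list was 0.017, and 7 of its 14 genes had a positive difference. HOXB1 was the only call among 16 measured HOX genes, beside 0.700% of all genes called. Its difference was 0.78 ± 0.10 (adjusted p = 0.0427, highest 0.164 without mandibular pool 2), although 10 of the 16 were above background on none of the 6 arrays. HOXB1 was above background in 3 of 3 mandibular pools and 1 of 3 maxillary pools. Of its 5 probe sets, 1 was called and 2 had negative differences, the lowest -0.22. Its frontonasal signals were 32.5, 201 and 30.3, and its adjusted p was 0.876 with all 9 arrays in one fit. HOXA3 had a difference of 1.09 ± 0.22 that did not pass (adjusted p = 0.17).

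Endothelial genes had the highest median of any list, 0.27. KDR, a VEGF receptor, read 134, 134 and 138 in mandibular pools against 84.1, 82.9 and 91.3 in maxillary pools (0.57 ± 0.07, limma adjusted p = 0.0473). CLDN5, a tight junction protein of vessels, was higher by 0.64 ± 0.07 (adjusted p = 0.0354). These were 2 calls among 25 measured genes, beside 0.700% of all genes called. The other 23 did not pass, among them SOX17 at 1.25 ± 0.23. The second CLDN5 probe set, also above background on all 6 arrays, differed by 0.29 ± 0.15 (limma adjusted p = 0.699). Of the 5 KDR probe sets, 1 was called, and the lowest difference was 0.03. The list summed to 5646 to 5695 in mandibular and 4633 to 5533 in maxillary pools. Both calls were lost in all 6 fits without 1 pool, with the highest adjusted p of 0.181 for KDR and 0.155 for CLDN5 without mandibular pool 1. They were also lost with all 9 arrays in one fit (0.681 for KDR and 0.448 for CLDN5), where frontonasal pool 2 read 128 for KDR against 53.8 and 55.8 in pools 1 and 3. In the erythroid list of 17 measured genes only CA2, carbonic anhydrase, was called, beside 0.700% of all genes called. CA2 differed by -0.98 ± 0.10 (highest adjusted p 0.111 without maxillary pool 2). Its adjusted p was 0.19 with all 9 arrays and 0.18 with frontonasal pool 2 left out. The embryonic globin gene HBZ differed by -0.07 ± 0.13.

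Of 20 measured genes of sensory and cranial neurons, ISL1 and NEFM were higher and EYA2 was lower, beside 0.700% of all genes called. The other 17 did not pass, and the median of the list was 0.08. NEFM, a neurofilament subunit, read 173, 173 and 198 in mandibular pools against 60.5, 51.7 and 69.2 in maxillary pools (1.37 ± 0.11, limma adjusted p = 0.0115). EYA2, a coactivator in placodes and muscle, read 86.1, 77.0 and 91.1 in mandibular pools against 189, 229 and 260 in maxillary pools (-1.26 ± 0.13, adjusted p = 0.0247). The highest adjusted p without 1 pool was 0.0835 for NEFM and 0.136 for EYA2, both without mandibular pool 1, and NEFM had 0.061 with all 9 arrays in one fit. Of the 3 NEFM probe sets, 1 was called and 1 had a negative difference, -0.04. STMN2, a growth cone protein, had the largest difference of the list that did not pass, at 1.63 ± 0.23 (adjusted p = 0.0604). The neuronal determinants NEUROG1, NEUROG2, NEUROD1 and NEUROD4 were above background on none of the 6 arrays. The neuron list summed to 1875 to 2043 in mandibular and 1346 to 1379 in maxillary pools. These sums include the called genes, among them ISL1 with means of 447 in mandibular and 150 in maxillary pools. The part of the neuron list in the differences of BHLHE22, CHODL and NPY was not tested.

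Eye and forebrain genes did not pass, apart from DLX5, which also stands in the placode list. It was 1 call among 26 measured genes, beside 0.700% of all genes called. SIX3, a forebrain and lens determinant, read 9.66, 16.7 and 4.26 in mandibular pools, below background, against 55.5, 34.7 and 50.2 in maxillary pools (-1.27 ± 0.21, limma adjusted p = 0.0943). PAX6, an eye and nasal placode regulator, read 34.6, 24.1 and 47.2 in mandibular pools against 116, 87.5 and 79.6 in maxillary pools (-1.12 ± 0.20, adjusted p = 0.12). Neither gene overlapped between the groups, and OTX2, a head and eye regulator, had a difference in the other direction (0.78 ± 0.14, adjusted p = 0.13). No gene was called in the lists of forebrain (19 measured), leukocytes (14), cell cycle (25), stress and immediate early genes (21) or the W chromosome (4). The medians of these lists lay between -0.07 and 0.04. Single pools differed in the W chromosome list. The median deviation of its genes from their means over the 6 arrays ran from -0.29 to 0.30 in mandibular pools. In maxillary pools it ran from -0.23 to 0.28.

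**Figure D5:**
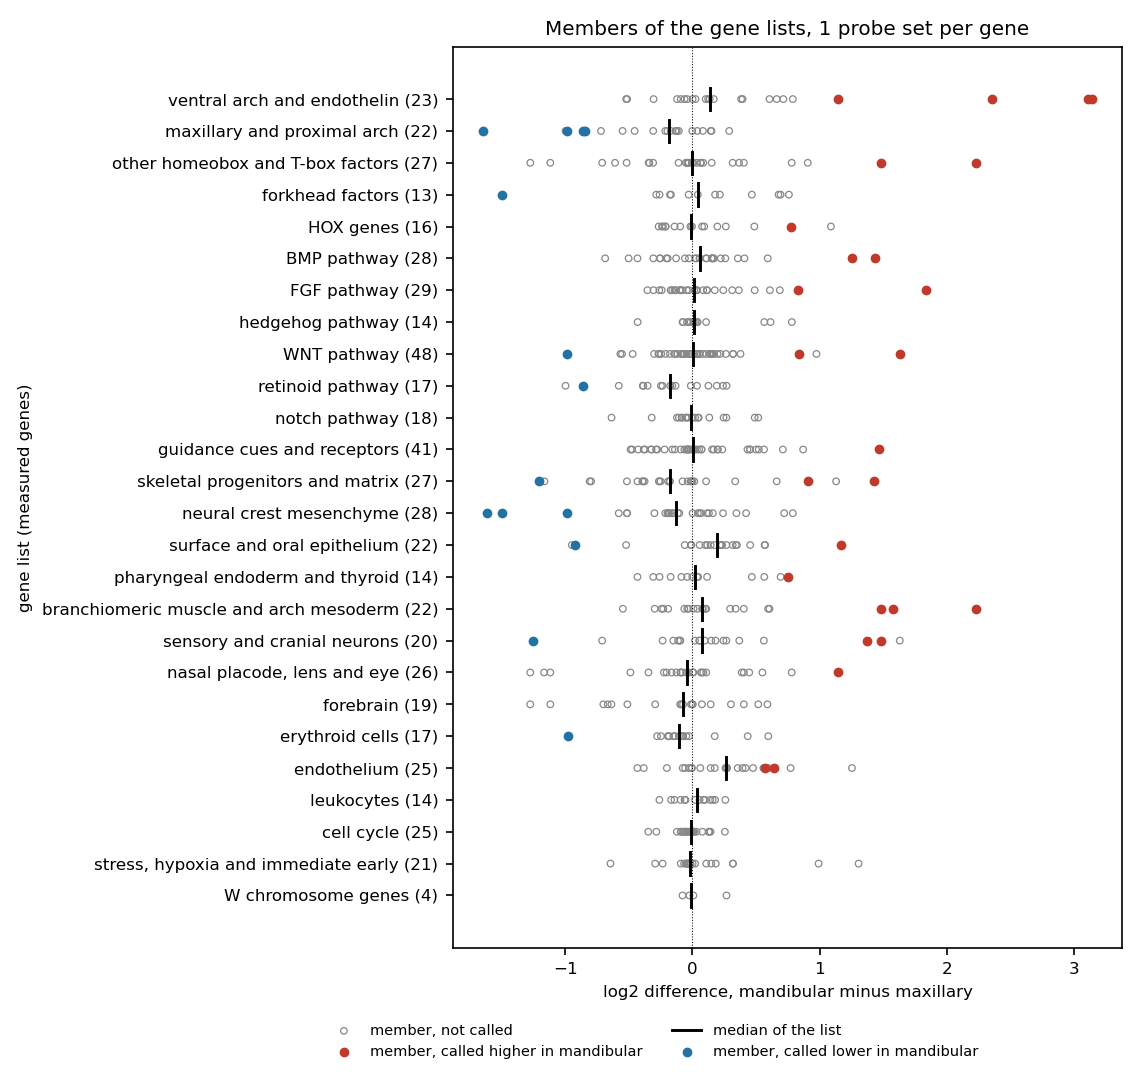
Log2 difference of mandibular minus maxillary pools (horizontal axis) for the measured members of 26 gene lists, 1 point per gene, with called genes filled in red (higher) or blue (lower), the others open and a bar at each median. Called points on the right are led by DLX6, HAND2 and MSX2 of the ventral arch list, those on the left by ALX1 and SOX10, and most points of every list are open.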

How the data were processed

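Per the labels' protocols, 500 ng of RNA per pool was amplified by an Affymetrix procedure of 2 cycles. The authors deposited 1 linear intensity for each of 38535 probe sets and array. How probes were summarised is not stated in the labels or headers. Trimmed by 2% at either end, each deposited column had a mean of 150.03, so a common scaling preceded deposit. After removal of 96 control probe sets, arrays were scaled to the same median, and log2(signal + 16) was tested with limma 3.58.1 in R 4.3.3 (lmFit, eBayes, 6 arrays, 4 residual degrees of freedom, Benjamini-Hochberg over 38439 probe sets). This scale understates fold changes of dim genes. A call is an adjusted p under 0.05. The procedure was tested on simulated data with normal noise. These data had no effect of replicate number, and spreads were shuffled over probe sets. They therefore cannot test a pairing of pools or the behaviour of dim probe sets.

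Background was the 95th percentile of 598 viral and reporter probe sets, none of which was called. Names came from the platform annotation (27168 probe sets with 1 gene, 177 with several, 11094 with none), and 26853 were updated through a reference gene table (GRCg7b), used for names and neighbours only. The probe set with the highest mean log2 value over the 6 arrays stands for a gene.

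Named by rule were a panel of 42 first arch genes (36 measured), the 15 largest called differences in each direction without overlap, the called members of 26 gene lists and up to 4 members of each list with the smallest p. Other genes were chosen after their values were seen. The comparison, panel and lists were chosen with earlier results of these data known. No batch is given in the labels.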

Additional observations from a re-analysis of the deposited data

How the results depend on the processing

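The main counts were 145 called probe sets, 105 higher and 40 lower. With a pseudocount of 1 they were 60, 46 and 14. Without the dimmest 40% of probe sets, where fewer tests are adjusted for, they were 285, 191 and 94. With all 9 arrays in one fit, 101 were called, 66 of them higher, and 77 of the 145 were shared. Leaving frontonasal pool 2 out of that fit, an alternative chosen after seeing the data, gave 174 calls, 129 of them shared. Of the 91 called genes, 43 lost the call with all 9 arrays, 11 with frontonasal pool 2 left out and 10 in both fits. Without 1 pool the counts were 21 to 30 in all, 21 to 27 higher and 0 to 3 lower. Of the fits with 0 lower calls in limma, that without mandibular pool 2 had 1349 lower at an unadjusted p under 0.05, that without mandibular pool 3 had 1583 and that without maxillary pool 2 had 1377. These fits have 3 residual degrees of freedom against 4. A pseudocount of 64, no scaling, quantile normalization and a trended robust prior left the counts within 1.5 times of the main ones.

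The labels give both groups replicate numbers 1 to 3 without saying what a number shares. The summed signal of the 4 measured W chromosome genes was 5229, 3881 and 4366 in mandibular pools 1, 2 and 3. In maxillary pools 1, 2 and 3 it was 5591, 4115 and 4301, the same order. Whether same-numbered pools hold tissue of the same embryos was not tested. Deviations from the group means of same-numbered pools correlated at 0.083, 0.092 and 0.063, under the 0.1 set for taking them as pairs, although every pool correlated best with the one of its own number. With the replicate number as a block, 0 probe sets were called in limma, 0 higher and 0 lower, against 3640 at an unadjusted p under 0.05 (3300 without the block), with 2 residual degrees of freedom.

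Some genes that were never called changed sign when 1 pool was left out. Over the 6 such fits the difference ran from -0.0701 to 0.00709 for HAND1, from -0.19 to 0.12 for GSC, from -0.22 to 0.0216 for ALX4 and from -0.0429 to 0.12 for WNT5A. It ran from -0.17 to 0.098 for TBX1, from -0.27 to 0.17 for TBX2, from -0.18 to 0.0578 for HINTW, from -0.20 to 0.18 for SPIN1L and from -0.12 to 0.18 for UBAP2L2. UBAP2L2 was at -0.0064 without scaling. HINTW, SPIN1L and UBAP2L2 stand in the W chromosome list, whose sums by pool are given above. The cause was not tested.

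Genes with more than 1 probe set limit the reading of single values: of 62 called genes with several probe sets, 5 had every one called in 1 direction and 21 had one of opposite sign, though 0 were called in opposite directions. Of the called probe sets, 4 higher and 2 lower ones were not above background in either group.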

Other observations

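Some called genes outside the lists are given here, picked after their values were seen. PENK, the enkephalin precursor, read 779, 901 and 963 intensity units in mandibular pools against 452, 364 and 406 in maxillary pools (1.08 ± 0.12, limma adjusted p = 0.0317, highest 0.142 without mandibular pool 2). KCNAB1, a potassium channel subunit, differed by 1.72 ± 0.08, GRIN3A, an NMDA receptor subunit, by 1.54 ± 0.09 and ABCC9, a regulatory subunit of potassium channels, by 1.55 ± 0.09, and these 3 kept their calls in all 6 fits without 1 pool. With all 9 arrays in one fit the adjusted p was 0.101 for KCNAB1 and 0.574 for ABCC9, whose frontonasal signals were 20.1, 173 and 16.9. CBLN1, a secreted synaptic organiser, differed by 1.68 ± 0.13 (highest 0.0745 without maxillary pool 3) and ADCYAP1R1, the PACAP receptor, by 1.18 ± 0.09 (highest 0.0745 without maxillary pool 3). The basement membrane genes NID1 and COL4A1 were called in opposite directions, at 0.73 ± 0.09 and -0.61 ± 0.07, and lost their calls in all 6 fits without 1 pool, where the adjusted p reached 0.157 for NID1 (mandibular pool 1 left out) and 0.163 for COL4A1 (mandibular pool 2 left out). Of the 4 NID1 probe sets, 1 was called and 2 had negative differences, the lowest -0.04. Of the 3 COL4A1 probe sets, 1 was called and 2 had positive differences, the highest 0.05. Of the 3 GRIN3A probe sets, 1 was called and 2 had negative differences, the lowest -0.09.

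The largest difference on the arrays belonged to a probe set to which the annotation used here gives no gene. It read 456, 401 and 367 in mandibular pools against 1.82, 3.07 and 5.19 in maxillary pools, and 2.14, 226 and 7.64 in frontonasal pools. The maxillary pools were below background, so the mandibular pools were at least 11.5-fold higher (4.45 ± 0.11, limma adjusted p = 0.000231, highest 0.0081 without mandibular pool 2). It was singled out after its values were seen. In all, 31 called probe sets had no gene, 23 higher and 8 lower.

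TLX1, a homeobox gene, was called by the probe set that does not stand for it, with 315, 258 and 306 in mandibular pools against 36.1, 5.94 and 40.5 in maxillary pools (2.94 ± 0.36, limma adjusted p = 0.0417, highest 0.181 without mandibular pool 1). Its other probe set differed by 0.06 ± 0.10 with overlapping groups. Counted by the probe set with the smallest p, 105 genes were called, against 91 by the one with the highest mean. The neighbouring genes TNNT2 and PKP1 were called in opposite directions.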
